A study of Mus musculus with 12 samples.

Results

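The troponins and tropomyosins are the calcium switch of the striated muscle thin filament, and 10 of their genes were followed here across the 12 libraries of one experiment. They were found by their Ensembl gene identifiers, read through the GENCODE annotation of mouse genome build GRCm38, among the 55487 genes listed in the count table, and each symbol matched 1 identifier. They comprise 3 troponin T genes (Tnnt1, Tnnt2 and Tnnt3), 2 troponin I genes (Tnni1 and Tnni2), 2 troponin C genes (Tnnc1 and Tnnc2) and 3 tropomyosin genes (Tpm1, Tpm2 and Tpm3).

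Tropomyosin lies as a coiled coil along the actin filament and covers the sites where myosin binds. Troponin C binds calcium, troponin I holds the filament off in its absence, and troponin T ties the complex to tropomyosin, so that a rise in calcium moves tropomyosin and lets myosin pull. Slow fibres, fast fibres and the heart use different genes for each subunit, and C2C12 myotubes, like embryonic muscle, express slow, fast and cardiac forms together.

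The cells were C2C12, an immortalised mouse myoblast line that fuses into myotubes when serum is lowered. All cultures were differentiated for 5 days in DMEM with 2% horse serum and antibiotics, and were then kept for 24 h in DMEM with antibiotics and either 4% horse serum (control, libraries 1 to 6) or 4% STEM (libraries 7 to 12), a secretome product tested by the study for muscle recovery. STEM took the place of the serum, so the addition of STEM and the removal of horse serum cannot be told apart in this comparison. Total RNA depleted of ribosomal RNA was sequenced, and the labels do not say whether the 6 libraries of a group came from separate cultures, so the p-values measure the spread between these libraries, which may be technical.

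Levels are given as CPM, the counts of a gene per 1000000 counts of its library after TMM correction of the library size, and a gene was called when the p of the edgeR quasi-likelihood test, adjusted by Benjamini-Hochberg over all tested genes, was 0.05 or less. Library totals ran from 13285472 to 24536264 counts. The second principal component of all tested genes (19.8% of the variance) set horse serum library 6 at -53.3 against 0.2 to 11.8 for the other 11 libraries. Each comparison was made with and without library 6, as the plan of this report asked. The p-values over 11 libraries thus follow the removal of a library already known to stand apart. The summed CPM of 12 myotube markers was 16869.5 to 19250.2 in horse serum libraries 1 to 5, 12342.7 in library 6 and 15539.1 to 21187.5 with STEM, and library 6 was the lowest horse serum library for 11 of the 12. The summed CPM of 6 genes of proliferating cells was 595.4 to 911.7 in libraries 1 to 5, 987.0 in library 6 and 448.3 to 551.5 with STEM. That of 6 genes of undifferentiated myoblasts or satellite cells was 269.8 to 306.3, 282.4 and 220.2 to 250.9 CPM, with all STEM libraries below all horse serum libraries. Over 11 libraries 3 of these 6 genes were called lower and 1 higher. Of all tested genes 24.5% were called lower and 26.3% higher over 11. Of the 12 myotube markers 5 were called lower and 3 higher over 11 libraries. Of the 6 genes of proliferating cells 5 were called lower and 0 higher. In these bulk samples fewer cells of a type and less RNA per cell cannot be told apart. Of the markers of other cell types, Ptprc, Adgre1 and Itgam (macrophages), all 4 endothelial genes and Myh11 and Myocd (smooth muscle) stayed under 1 CPM in every library. The 5 macrophage genes listed summed to 3.73 to 5.21 CPM in horse serum libraries 1 to 5, 2.15 in library 6 and 4.24 to 5.71 with STEM. Of these 5 genes 1 was called higher and 0 lower over 11 libraries. The summed CPM of the 6 smooth muscle genes was nonetheless 2215.2 to 2394.8 in horse serum libraries 1 to 5, 2671.9 in library 6 and 2807.5 to 3328.6 with STEM, and that of 5 fibroblast genes was 316.8 to 454.4, 512.7 and 372.7 to 829.2. Over 11 libraries 3 of the 6 smooth muscle genes and 3 of the 5 fibroblast genes were called higher, and 0 lower. The part of these marker levels in the results below was not tested.

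Several of the genes are neighbours. On GRCm38, Tnni2 (ENSMUSG00000031097, chr7:142441808-142444410) and Tnnt3 (ENSMUSG00000061723, chr7:142498836-142516009) lie on the plus strand of chromosome 7 with 54.4 kb and 1 other gene between them. Tnni1 (ENSMUSG00000026418, chr1:135779434-135810989) and Tnnt2 (ENSMUSG00000026414, chr1:135836354-135852260) lie in the same way on chromosome 1 with 25.4 kb and 1 other gene between them. Tnnt1 (ENSMUSG00000064179, chr7:4504570-4516382, minus strand) lies 1.92 kb from Tnni3, the cardiac troponin I gene. Such pairs of a troponin I and a troponin T gene are the usual arrangement in mammals. The remaining 5 stand alone, namely Tnnc1 (ENSMUSG00000091898, chr14:31208312-31211729, plus), Tnnc2 (ENSMUSG00000017300, chr2:164777161-164779967, minus), Tpm1 (ENSMUSG00000032366, chr9:67022590-67049406, minus), Tpm2 (ENSMUSG00000028464, chr4:43514711-43523765, minus) and Tpm3 (ENSMUSG00000027940, chr3:90072649-90100902, plus). All 10 are protein coding, with 2 (Tnnc2) to 27 (Tnnt3) annotated transcripts that the counts per gene do not separate.

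The sequences before the gene starts were searched for sites of muscle transcription factors. RefSeq windows of 300 bases (250 before to 50 after a start, build GRCm38.p6) were found for 8 of the 10 genes, 11 windows in all, and none was matched for Tnni2 and Tnnt3. Each window was searched on both strands for the E-box (CANNTG, the site of MyoD and myogenin), for MCAT (CATTCC, the site of TEAD factors), and for the MEF2 and CArG motifs by name, CArG being the site of serum response factor. None of the matches overlapped one of another motif. Printed below, 5′ to 3′ on the strand of the gene, are the 250 bases before the start for Tnnt2, Tnnc1 and Tpm1, the 3 genes with an MCAT match, and for Tpm2, the gene whose values differed from those of the others. Capitals mark E-boxes and MCAT matches, an MCAT on the other strand reading GGAATG.
Tnnt2, chr1:135836084-135836333, plus strand: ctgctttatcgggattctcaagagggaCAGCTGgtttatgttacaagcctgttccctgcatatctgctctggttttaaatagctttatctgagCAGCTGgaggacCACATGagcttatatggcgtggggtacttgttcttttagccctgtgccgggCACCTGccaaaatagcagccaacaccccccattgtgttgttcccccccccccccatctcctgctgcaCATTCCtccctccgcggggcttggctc
Tnnc1, chr14:31208062-31208311, plus strand: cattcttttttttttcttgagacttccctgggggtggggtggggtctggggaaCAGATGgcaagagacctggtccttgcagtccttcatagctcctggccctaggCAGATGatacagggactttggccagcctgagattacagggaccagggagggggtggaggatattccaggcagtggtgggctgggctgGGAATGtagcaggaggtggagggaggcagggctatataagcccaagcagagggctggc
Tpm1, chr9:67049214-67049463, minus strand: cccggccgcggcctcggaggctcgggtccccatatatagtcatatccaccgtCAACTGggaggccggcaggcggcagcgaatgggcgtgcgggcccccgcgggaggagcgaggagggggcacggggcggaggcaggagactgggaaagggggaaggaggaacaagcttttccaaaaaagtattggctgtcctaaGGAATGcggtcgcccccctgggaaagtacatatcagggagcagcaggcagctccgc
Tpm2, chr4:43523555-43523804, minus strand: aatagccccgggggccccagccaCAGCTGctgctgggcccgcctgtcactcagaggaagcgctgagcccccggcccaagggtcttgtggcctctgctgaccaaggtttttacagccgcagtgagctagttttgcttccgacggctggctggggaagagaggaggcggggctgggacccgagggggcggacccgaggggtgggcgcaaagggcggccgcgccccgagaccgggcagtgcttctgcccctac

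An E-box was found in 11 of the 11 windows, and in 72.3% of the 32851 RefSeq promoter windows of that length. The 2 windows of Tnni1 overlap and share 2 of these E-boxes. MCAT was found in 3 of the 11 windows and in 14.7% of all windows. It began 27 bases before the start in Tnnt2, 58 before it in Tnnc1 and 56 before it in Tpm1. MEF2 and CArG were found in 0 of the 11 windows, against 3.19% and 1.63% of all windows, which says only that these letters are not in these stretches.

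All 10 genes were well measured, with 3131 to 65289 counts per gene and library, so that counting error at the lowest count of each gene was between 0.559% and 1.79%. Between genes, levels were compared per kb of the principal transcript. In horse serum libraries 1 to 5 the order of the mean CPM per kb began with Tnnc1 (2858.6 ± 89.4, SD, n = 5), the troponin C of slow and cardiac muscle, followed by Tnni1 (1897.9), Tpm1 (1551.4), Tnnt3 (1438.8), Tnni2 (1355.0), Tnnc2 (952.2), Tpm2 (919.7), Tnnt2 (866.2) and Tnnt1 (589.1), and ended with Tpm3 (180.2 ± 9.12). The ranges over libraries overlapped for the neighbours Tpm1 and Tnnt3, Tnnt3 and Tnni2, Tnnc2 and Tpm2, and Tpm2 and Tnnt2. With the length of all annotated exons in place of the principal transcript, Tnnc1 stayed the highest and Tpm3 the lowest, but Tnnt3 took the second place and Tnni1 the sixth. With STEM the order per kb of principal transcript differed in that Tnnt3 stood above Tpm1 and Tpm2 above Tnnc2.

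STEM was compared with horse serum to ask how the thin filament genes of formed myotubes responded. Over all 12 libraries, 2 of the 10 genes were lower with STEM (Tnnt2 and Tpm3), 0 were higher and 8 were not called, where 17.4% of the 14175 tested genes were called lower and 18.9% higher. Without horse serum library 6, 9 of the 10 were lower (all but Tpm2) and 0 higher, where 24.5% of 14267 tested genes were called lower and 26.3% higher. No member was higher at an unadjusted p under 0.05 by edgeR, DESeq2 or limma-voom in either set of libraries. The median log2 fold change of the members was -0.25 over 12 libraries and -0.35 over 11, and that of all tested genes was 0.012 and 0.008. For 6 members (Tnnt2, Tnni1, Tnni2, Tnnc1, Tpm1 and Tpm3) every STEM library lay below all of horse serum libraries 1 to 5, as did 16.5% of all tested genes. With library 6 included this held for 0 members and 8.52% of the tested genes.

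**Figure D1:**
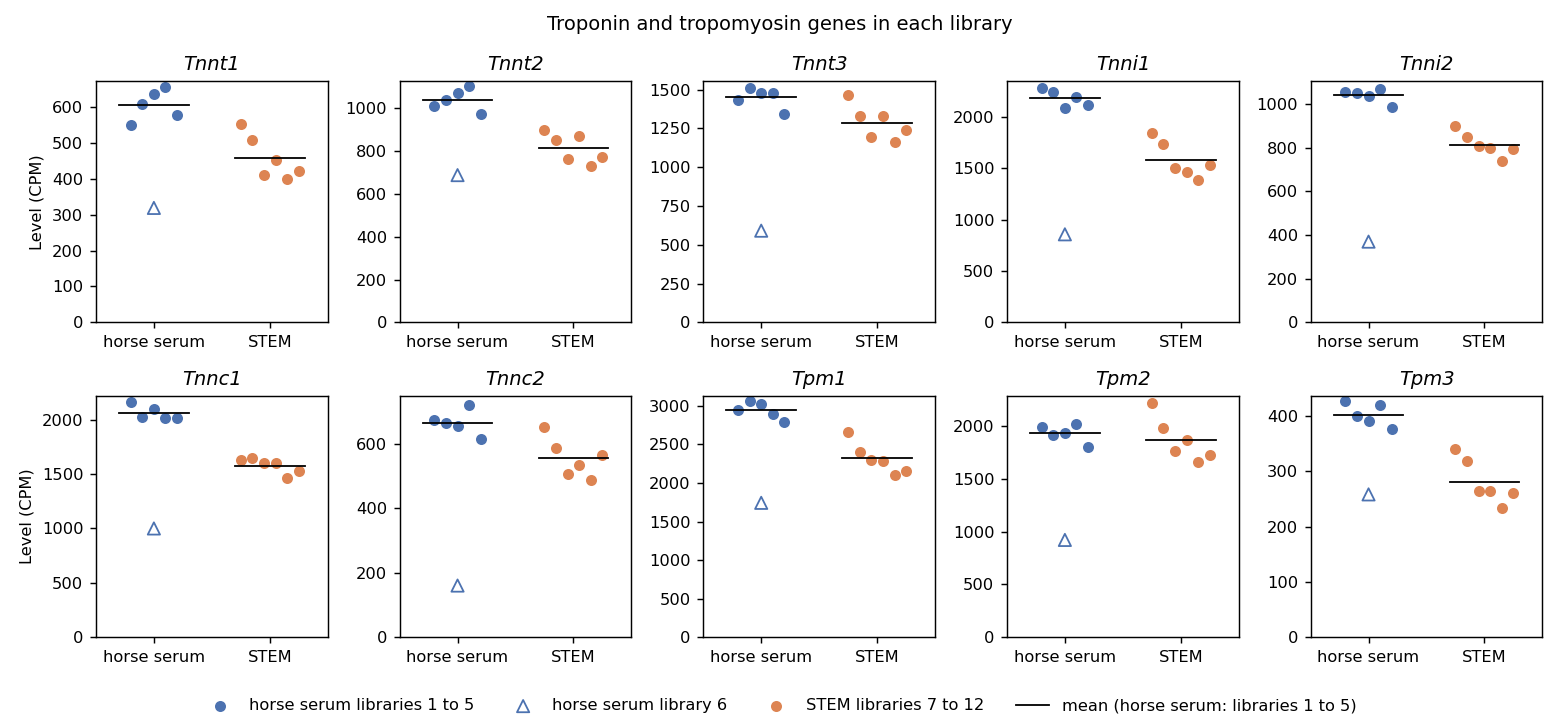
Level (CPM) of the 10 genes in each library, with horse serum libraries 1 to 5 as filled blue points, horse serum library 6 as an open triangle and STEM libraries 7 to 12 as orange points; lines are means, that of horse serum over libraries 1 to 5. Library 6 is the lowest horse serum library in all 10 panels, and the STEM points of Tpm2 (1659.9 to 2219.7) span those of horse serum libraries 1 to 5.

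The call turned on library 6 for 7 of the genes. It was the lowest horse serum library for all 10, and the mean of the other 5 was 1.51 (Tnnt2) to 4.15 times (Tnnc2) its level. Together the 10 genes took 1.35% to 1.42% of the counts of horse serum libraries 1 to 5, 0.738% of library 6 and 1.05% to 1.32% of the STEM libraries. Among all tested genes library 6 was below each other horse serum library for 33.1%. For 1565 of the 14175 this held and the mean of the other 5 was also at least 1.5 times its level.

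Among the troponin T genes, Tnnt1, the slow form, stood at 548.4, 607.8, 635.5, 655.2 and 578.0 CPM in horse serum libraries 1 to 5 and at 318.7 in library 6. With STEM it ran from 399.1 through a median of 437.0 to 553.2 CPM. The groups overlapped by 1 STEM library, which was above horse serum library 1. The log2 fold change was -0.40 (SE 0.0821, edgeR adjusted p = 0.00102) without library 6 and -0.28 (SE 0.150, adjusted p = 0.157) with it.

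Tnnt2, the cardiac form, which skeletal muscle expresses in the embryo and in newly formed myotubes, stood at 1010.8, 1036.2, 1070.2, 1105.7 and 974.2 CPM in horse serum libraries 1 to 5, at 687.4 in library 6, and at 731.9 to 899.5 (median 812.2) with STEM. Every STEM library was below libraries 1 to 5 and above library 6. It was lower with STEM in both sets of libraries, with a log2 fold change of -0.27 (SE 0.0975, edgeR adjusted p = 0.0439) over 12 and -0.35 (SE 0.0547, adjusted p = 2.74e-05) over 11. The call over 12 libraries was lost with no filter on low counts (adjusted p = 0.115), with limma-voom (adjusted p = 0.0597), and when any library other than 6 or 7 was left out (adjusted p between 0.0506 and 0.0975). Of 7 cardiomyocyte markers 4 (Nppa, Nppb, Myl7 and Ryr2) were under 1 CPM in every library. The summed CPM of the 7 was 88.5 to 136.3 in horse serum libraries 1 to 5, 155.7 in library 6 and 97.3 to 155.4 with STEM. Over 11 libraries 2 of the 7 were called lower and 0 higher. Of all tested genes 24.5% were called lower and 26.3% higher over 11.

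Tnnt3, the fast form, stood at 1434.0, 1509.0, 1478.8, 1480.7 and 1341.7 CPM in horse serum libraries 1 to 5, at 590.8 in library 6, and at 1160.2 to 1464.4 (median 1284.7) with STEM. Here STEM library 7 reached into the range of libraries 1 to 5 and the other STEM libraries lay below it. The log2 fold change of -0.17 (SE 0.0554, edgeR adjusted p = 0.0142) without library 6 was the smallest of the 9 called, and with library 6 it was -0.02 (SE 0.184, adjusted p = 0.940).

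Within the summed troponin T level per kb, Tnnt3 held 48.5% to 50.9% in horse serum libraries 1 to 5, 39.9% in library 6 and 52.3% to 53.9% with STEM. Tnnt1 held 19.1% to 21.1% in libraries 1 to 5 and 17.7% to 19.6% with STEM. Library 6 differed in the opposite sense, Tnnt2 reaching 39.0% there against 29.2% to 30.4% in libraries 1 to 5. These shares depend on the transcript length chosen for each gene.

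Of the troponin I genes, Tnni1, the slow inhibitory subunit, stood at 2279.6, 2243.7, 2083.7, 2192.4 and 2113.3 CPM in horse serum libraries 1 to 5, at 857.7 in library 6, and at 1391.1 to 1847.3 (median 1518.3) with STEM. It was lower in every STEM library than in each of libraries 1 to 5, with a log2 fold change of -0.47 (SE 0.0628, edgeR adjusted p = 6.97e-06) without library 6 and -0.31 (SE 0.194, adjusted p = 0.232) with it. Tnni2, the fast inhibitory subunit, stood at 1054.2, 1052.1, 1038.0, 1070.6 and 988.3 CPM in libraries 1 to 5, at 369.9 in library 6, and at 738.5 to 900.5 (median 802.6) with STEM. Again no STEM library reached the lowest of libraries 1 to 5. The log2 fold change was -0.35 (SE 0.0476, adjusted p = 5.04e-06) without library 6 and -0.19 (SE 0.207, adjusted p = 0.502) with it.

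The cardiac troponin I gene, Tnni3, was not among the 10 and had the largest fold change of the troponin genes tested. Its level was low, with 26 to 48 counts in the horse serum libraries and 8 to 21 with STEM, or 1.80 to 2.46 and 0.526 to 1.0 CPM. All 6 STEM libraries were below all 6 horse serum libraries, and library 6 was the highest of them rather than the lowest. The log2 fold change was -1.40 (SE 0.179, edgeR adjusted p = 3.55e-05) over 12 libraries and -1.33 (SE 0.196, adjusted p = 1.4e-05) over 11.

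Of the troponin C genes, Tnnc1, the calcium sensor of slow and cardiac muscle, stood at 2159.3, 2024.7, 2094.4, 2012.8 and 2014.1 CPM in horse serum libraries 1 to 5, at 999.3 in library 6, and at 1461.5 to 1645.6 (median 1603.7) with STEM. The 6 STEM libraries formed a narrow group (SD 70.4 CPM) below libraries 1 to 5 and above library 6. The log2 fold change was -0.39 (SE 0.0428, edgeR adjusted p = 4.98e-07) without library 6, the lowest p of the 10 genes, and -0.26 (SE 0.145, adjusted p = 0.188) with it.

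Tnnc2, the fast calcium sensor, stood at 674.9, 665.3, 654.8, 721.6 and 616.2 CPM in libraries 1 to 5, at 160.5 in library 6, and at 489.9 to 652.6 (median 550.6) with STEM. STEM library 7 alone reached the range of libraries 1 to 5. The log2 fold change was -0.26 (SE 0.0644, edgeR adjusted p = 0.00282) without library 6 and -0.06 (SE 0.284, adjusted p = 0.878) with it. Tnnc2 shares 592 of its 800 exon bases (74%) with Ube2c, a cell cycle gene on the opposite strand. The strand setting of the counting is not given in the sources used here, so reads of the 2 genes cannot be told apart. Ube2c stood at 13.1 to 21.9 CPM in horse serum libraries 1 to 5, 27.4 in library 6 and 12.8 to 15.1 with STEM.

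The tropomyosin genes differed most among themselves. Tpm1, which gives the alpha-tropomyosin of fast and cardiac muscle as well as forms of non-muscle cells, stood at 2944.9, 3064.2, 3023.7, 2901.3 and 2788.2 CPM in horse serum libraries 1 to 5, at 1743.2 in library 6, and at 2109.9 to 2662.5 (median 2292.3) with STEM. Every STEM library was below libraries 1 to 5, and the log2 fold change was -0.34 (SE 0.0539, edgeR adjusted p = 2.85e-05) without library 6 and -0.24 (SE 0.115, adjusted p = 0.114) with it.

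Tpm2, the gene of beta-tropomyosin, stood at 1985.6, 1910.4, 1930.9, 2020.7 and 1800.6 CPM in libraries 1 to 5, at 921.1 in library 6, and at 1659.9 to 2219.7 (median 1812.5) with STEM. STEM libraries 8 and 10 lay within the range of horse serum libraries 1 to 5, libraries 9, 11 and 12 below it, and library 7 above it with the highest value of all 12. It was not called in either set, with a log2 fold change of -0.05 (95% confidence interval -0.18 to 0.09, edgeR adjusted p = 0.567) without library 6 and 0.08 (interval -0.26 to 0.43, adjusted p = 0.707) with it.

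Tpm3, which gives slow-fibre alpha-tropomyosin and short forms found in most cells, stood at 426.6, 399.6, 390.1, 418.9 and 377.1 CPM in libraries 1 to 5, at 258.2 in library 6, and at 233.6 to 340.4 (median 264.3) with STEM. It was lower with STEM, with a log2 fold change of -0.52 (SE 0.0858, edgeR adjusted p = 2.51e-04) without library 6, the largest of the 10, and of -0.43 (SE 0.119, adjusted p = 0.0118) with it. With no filter on low counts the call over 12 libraries was lost (adjusted p = 0.0538). A gene annotated as a Tpm3 related sequence, Tpm3-rs7, held 26 to 41 counts per library against 3816 to 8348 for Tpm3. Tropomyosin genes are alike in sequence, so reads shared between such copies make these levels uncertain. The counts given here do not measure by how much.

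**Figure D2:**
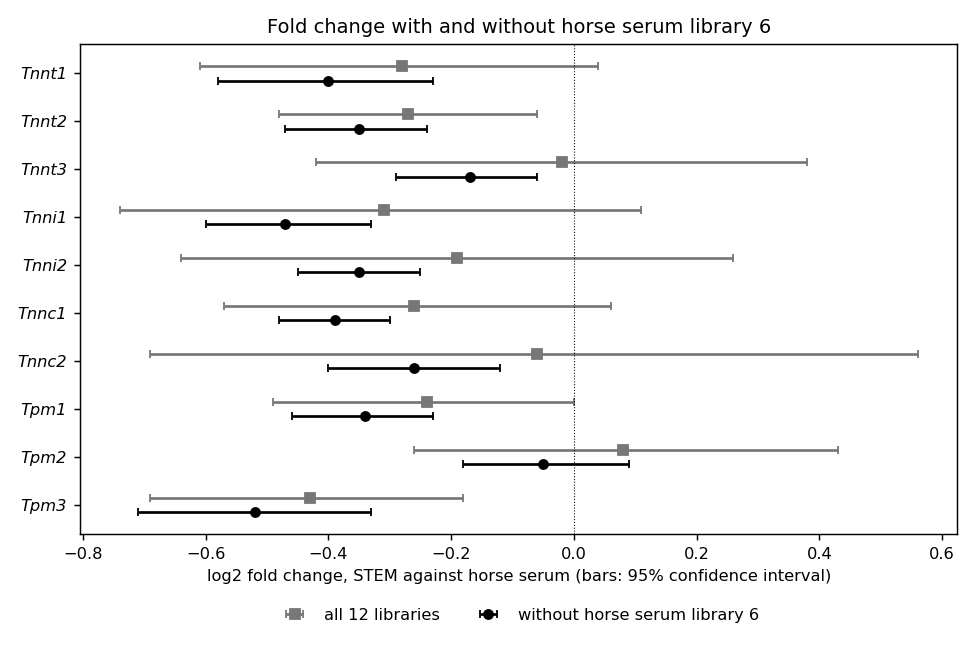
Log2 fold change of each gene, STEM against horse serum, by edgeR over all 12 libraries (grey squares) and without horse serum library 6 (black circles), with 95% confidence intervals as bars. Without library 6 the intervals of 9 genes lie below 0 and that of Tpm2 (-0.18 to 0.09) spans it.

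Relative to each other, Tpm2 held 33.7% to 35.9% of the summed tropomyosin level per kb of these 3 genes in horse serum libraries 1 to 5, 29.8% in library 6 and 38.7% to 40.5% with STEM, with no overlap between the 2 media. Tpm1 held 57.1% to 59.7% in libraries 1 to 5, 62.3% in library 6 and 53.7% to 55.9% with STEM. Tpm3 held 6.5% to 7.1% in libraries 1 to 5 and 5.21% to 6.06% with STEM. The log2 ratio of Tpm2 to Tpm1 per kb was -0.75 (SD 0.0641, n = 5) in libraries 1 to 5 and -0.46 (SD 0.0463, n = 6) with STEM, a pair chosen after its values were seen and therefore given with no test. Tpm4, a tropomyosin of non-muscle cells, ran from 790.3 to 910.2 CPM in horse serum and from 792.3 to 877.7 with STEM, with a log2 fold change of -0.02 (95% confidence interval -0.13 to 0.08, edgeR adjusted p = 0.725), and library 6 (900.8 CPM) was within the range of the others.

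**Figure D3:**
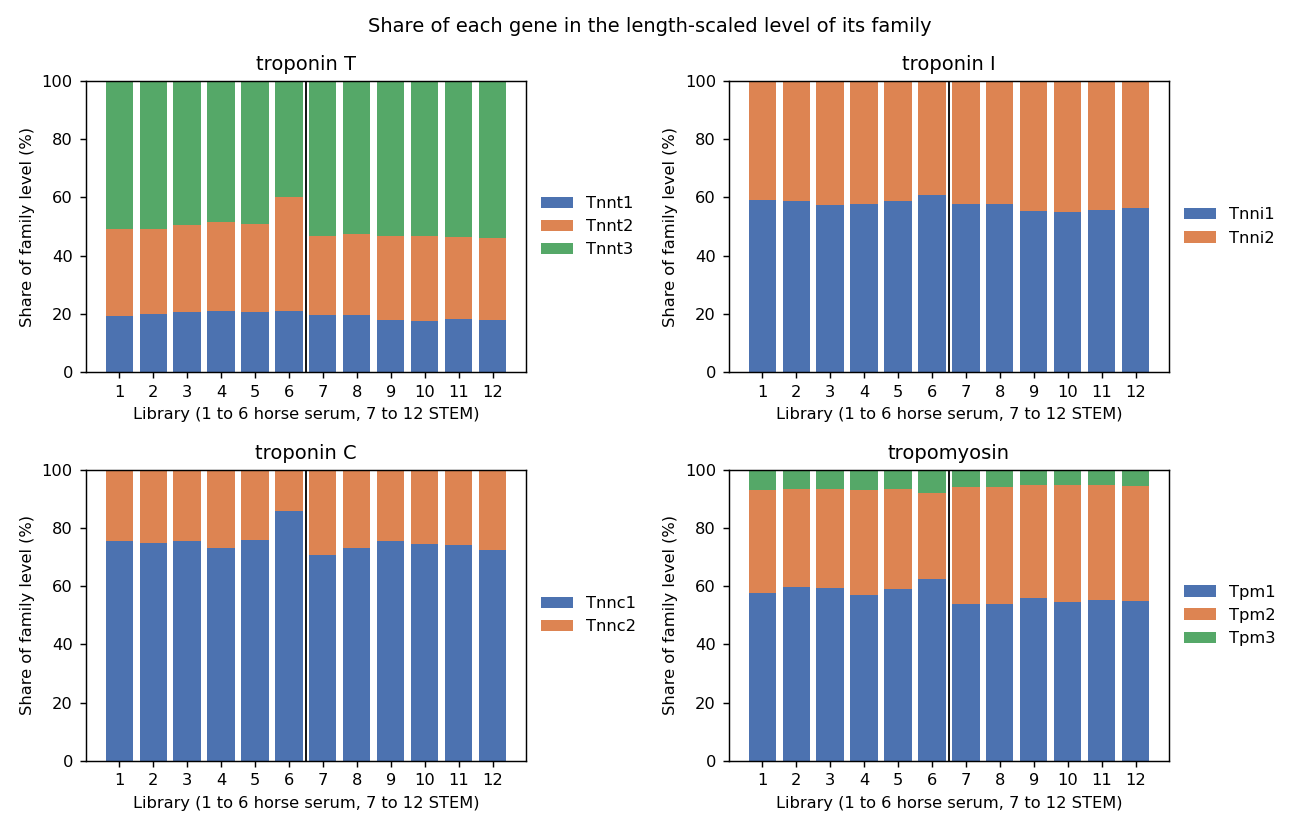
Share (%) of each gene in the summed level per kb of principal transcript of its family, as stacked bars for each library, with horse serum libraries 1 to 6 to the left of the line and STEM libraries 7 to 12 to the right. The Tpm2 share is 38.7% to 40.5% in the STEM bars and at most 35.9% in the horse serum bars, and library 6 stands out by its Tnnt2 (39.0%) and Tnnc1 (85.8%) shares.

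The balance of slow and fast forms was compared within libraries, since a ratio of 2 genes in 1 library does not depend on how the library is scaled. The sign of a log2 ratio depends on the transcript lengths chosen, while the difference between the media does not. In horse serum libraries 1 to 5 Tnni1 held on average 58.3% of the troponin I level per kb of principal transcript, and 46.6% per kb of all exons. For each of 4 pairs the difference in mean log2 ratio was tested by a two-sided exact permutation test, whose smallest possible p was 0.00216 over 12 libraries and 0.00433 over 11, with Benjamini-Hochberg adjustment over the 4 pairs. The ratio of Tnnt1 to Tnnt3 was -1.23 (SD 0.170, n = 6) in horse serum and -1.53 (SD 0.0776, n = 6) with STEM, and no STEM library reached a horse serum library (exact p = 0.00216, adjusted 0.00866). The nearest, horse serum library 1 and STEM library 8, were both at -1.42 when rounded. Without library 6 the ratio fell by 0.236 (exact p = 0.00433, adjusted 0.0173).

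The ratio of Tnni1 to Tnni2 was 0.51 (SD 0.0722, n = 6) in horse serum and 0.37 (SD 0.0694, n = 6) with STEM (exact p = 0.013, adjusted 0.0173), and without library 6 it fell by 0.116 (exact p = 0.026, adjusted 0.0346). That of Tpm3 to Tpm1 was -3.09 (SD 0.0853, n = 6) in horse serum and -3.29 (SD 0.0996, n = 6) with STEM (exact p = 0.00866, adjusted 0.0173), and without library 6 it fell by 0.184 (exact p = 0.0173, adjusted 0.0346). Both pairs overlapped between the groups. Over the 11 libraries the adjusted p of either pair passed 0.05 when 1 of several further libraries was left out (1, 2, 5, 9, 10, 11 or 12 for Tnni1 to Tnni2, and 1, 5, 9, 10, 11 or 12 for Tpm3 to Tpm1), with adjusted p between 0.0556 and 0.0762.

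The ratio of Tnnc1 to Tnnc2 rested on library 6. It was 1.76 (SD 0.420, n = 6) in horse serum and 1.47 (SD 0.125, n = 6) with STEM (exact p = 0.0476, adjusted 0.0476), library 6 alone being at 2.60. Without it the difference was -0.121 (exact p = 0.0952, adjusted 0.0952), from 1.59 in horse serum to 1.47 with STEM. Thus in 3 of the 4 pairs the slow gene was lower relative to the fast gene with STEM in both sets of libraries, and library 6 held the highest slow-to-fast ratio of all 12 libraries in all 4. For Tpm3 to Tpm1 the counts may include forms of non-muscle cells, so this ratio need not be one of slow and fast forms alone.

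**Figure D4:**
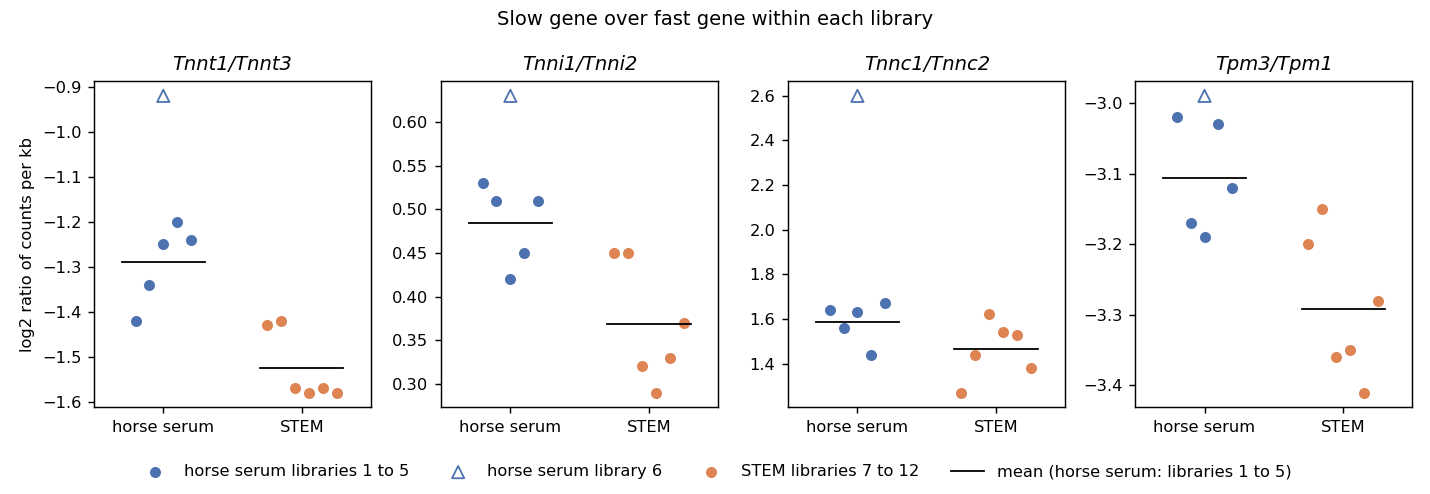
Log2 ratio of the slow to the fast gene of each family, in counts per kb of principal transcript within a library, with horse serum libraries 1 to 5 filled blue, horse serum library 6 as an open triangle and STEM libraries orange; lines are means, that of horse serum over libraries 1 to 5, and each panel has its own axis range. Library 6 is the highest point in all 4 panels, at 2.60 for Tnnc1/Tnnc2 where the other libraries lie between 1.27 and 1.67.

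The STEM libraries also differed among themselves. Libraries 7 and 8 held the highest values of the 6 for 9 of the 10 genes (all but Tnnt2), as they did for 10.8% of all tested genes. The labels give no batch, day or plate for these libraries, and the difference was noticed in the data. Library 7 was also the deepest, at 24536264 counts. Leaving out any 1 of the 11 libraries kept the count of members called lower at 9, while 3253 to 3496 of all tested genes were called lower.

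**Figure D5:**
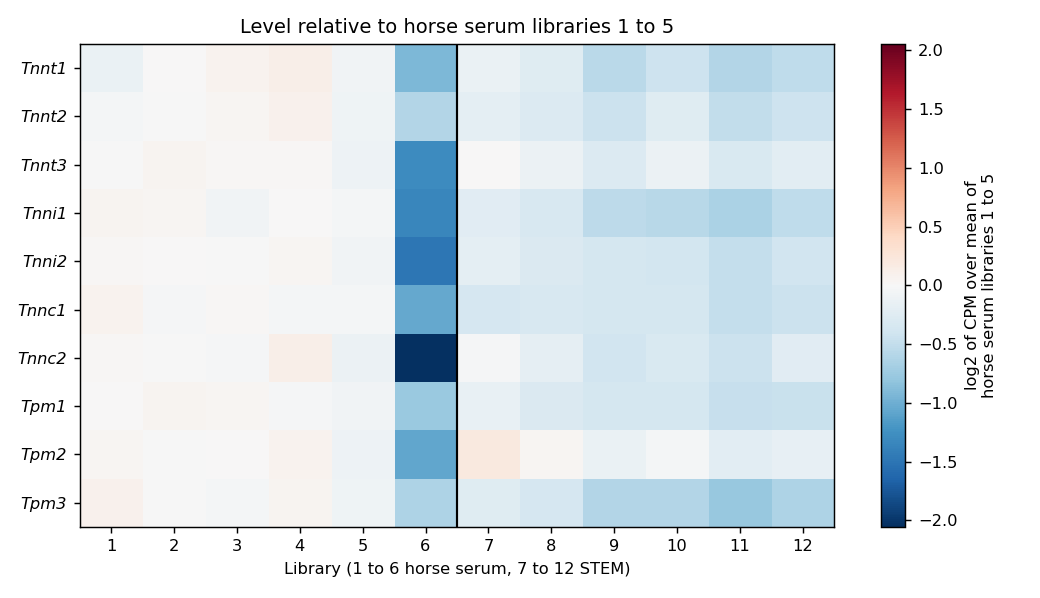
Log2 of the CPM of each gene in each library over its mean in horse serum libraries 1 to 5, with blue for lower and red for higher. The column of horse serum library 6 is the darkest, down to a CPM of 160.5 for Tnnc2 against a mean of 666.6, and the row of Tpm2 is the palest among the STEM libraries.

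The other genes of the thin filament, 22 listed and 21 tested, did not share one direction. Over 12 libraries 3 were higher and 4 lower, with a median log2 fold change of -0.03. Of all tested genes 18.9% were called higher and 17.4% lower over 12. Over 11 libraries 6 were higher and 10 lower, with a median of -0.17. Of all tested genes 26.3% were called higher and 24.5% lower over 11. Those of the list that were higher over 11 were smooth muscle and cytoplasmic actins, Nebl and Xirp1. Those lower included the sarcomeric actins. The list mixes genes of striated muscle with genes of other cells, so its counts do not describe the striated thin filament alone. Acta2, the smooth muscle actin that myoblasts also make, was higher with STEM by 0.34 on the log2 scale (edgeR adjusted p = 0.00184), and Xirp1, an actin-binding protein of striated muscle, by 0.68 (adjusted p = 0.00115). Nebl, the nebulette gene, lay between 0.121 and 0.359 CPM in horse serum and between 1.14 and 1.91 with STEM, very low levels that differed by 2.77 on the log2 scale (adjusted p = 1.43e-06). Cfl2, the muscle cofilin that severs actin filaments, was lower, with a log2 fold change of -0.44 (adjusted p = 0.0224) over 12 libraries and of -0.55 (adjusted p = 3.83e-08) over 11. The sarcomeric actins, named after their values were seen, were not called over 12 libraries and were lower over 11, Acta1 with a log2 fold change of -0.25 (adjusted p = 2.71e-04) and Actc1 with -0.67 (adjusted p = 3.82e-04). Library 6 was the lowest horse serum library for both, with 325.3 CPM of Actc1 against a mean of 1501.4 in the other 5.

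Among 32 transcription factors and cofactors of muscle fibre genes, 29 of them tested, 5 were higher and 6 lower over 12 libraries (median log2 fold change 0.10), and 9 higher and 8 lower over 11 (median 0.05). The shares of all tested genes were 18.9% higher and 17.4% lower over 12, and 26.3% and 24.5% over 11. Tead2, a factor that binds MCAT, had a log2 fold change of -0.36 (edgeR adjusted p = 3.98e-04), and Myf5, a myogenic determination factor, of -0.42 (adjusted p = 0.00132). Srf, the serum response factor, was higher by 0.24 on the log2 scale (adjusted p = 0.00241). For Tead2 library 6 lay within the range of the other horse serum libraries. The other TEAD genes of the list, looked up after these values were seen, were not called over 12 libraries. Over 11 libraries Tead4 was lower (log2 fold change -0.15, edgeR adjusted p = 0.0119), and Tead1 and Tead3 were not called. The E-box factors Myog and Myod1 were looked up likewise. Myog was lower, by -0.29 over 12 libraries (edgeR adjusted p = 0.00403) and -0.30 over 11 (adjusted p = 6.11e-04), and Myod1 was not called in either set. The part of these factors in the levels of the 10 genes was not tested.

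Troponin T and tropomyosin transcripts are spliced in many ways, which the counts per gene do not show. Of 15 splicing factors known to act on them, 14 were tested, of which 1 was higher and 2 lower over 12 libraries, and 4 higher and 2 lower over 11. The shares of all tested genes were 18.9% higher and 17.4% lower over 12, and 26.3% and 24.5% over 11. Mbnl2, a muscleblind factor, had a log2 fold change of -0.25 (edgeR adjusted p = 0.00226) and Ptbp2, a polypyrimidine tract binding protein, of -0.22 (adjusted p = 0.00542). Rbfox1, a muscle and brain splicing factor, was higher by 0.65 (adjusted p = 0.0105). Ptbp1, a widely expressed relative of Ptbp2, was called over 11 libraries (0.23, adjusted p = 7.82e-04) and not over 12 (0.09, adjusted p = 0.558), library 6 being at 96.6 CPM against 58.3 to 63.2 in libraries 1 to 5. Celf2, which like Mbnl2 acts on Tnnt2 splicing, was not called (-0.20, adjusted p = 0.0532).

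Across libraries the pattern of the 10 genes was summarised by the mean of their standardised log2 CPM. Over 12 libraries the non-member genes most like it were Mylpf (Pearson r = 0.992), the fast regulatory myosin light chain, Tspan13 (0.991), Mdh1 (0.989), Mybpc2 (0.986) and Uqcrh (0.985), and 146 genes reached 0.95. Over 11 libraries they were Lmod3 (0.991), an actin nucleator of the thin filament, Fundc2 (0.986), Ncbp3 (0.983), mt-Nd6 (0.980) and Usp47 (0.978), and 64 genes reached 0.95. The 2 sets of 5 had no gene in common. These values describe libraries that share their medium and scaling, and no test was made. Set against the mean of the other 9 members over 11 libraries, Tpm2 had r = 0.640 and the other members 0.891 (Tnnc1) to 0.984 (Tpm3). The order turned with library 6, since over 12 libraries Tpm3 had the lowest value (0.792), followed by Tpm2 (0.851), and Tnni1 the highest (0.988).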

How the data were processed

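The 12 libraries, 6 per medium, were grouped by the sample titles. The authors deposited raw read counts per gene. The submitters' processing notes name STAR 2.7.3a, featureCounts 1.6.3, DESeq2 1.26.0 and build GRCm38, with parameters and strand setting not given in the sources used here. Libraries were stranded total RNA depleted of ribosomal RNA. Of 55487 listed genes, 55227 were in GENCODE M21 (GRCm38), and the rest held 0.00268% of the counts.

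Differential expression was tested over all genes with edgeR 4.0.16 in R 4.3.3 (TMM, filterByExpr, robust glmQLFit, glmQLFTest) with Benjamini-Hochberg adjustment, called at 0.05. The steps were tested on simulated data. CPM used TMM-scaled library sizes, log2 CPM a prior count of 2, and log2 ratios an added count of 0.5. Alternatives were other scalings, filters, thinning to 13285472 counts, no robust estimation, DESeq2 1.42.0, limma-voom (limma 3.58.1), quality weights and leaving out each library. Members, lists and tests were chosen with earlier results of these data known. Named were all members, Tnni3 and Tpm4, from each of 3 lists at most 4 genes of lowest p in each set of libraries, and the 5 genes most like the members in each. Cell type markers were listed likewise. The values of 1 gene that this rule names are not reported here. Pairs of libraries within a group differed by 3.63 to 78.7 chi-square per degree of freedom, so none was counted as a repeat.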

Additional observations from a re-analysis of the deposited data

Results flagged for a closer look

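Among 58 groups of 6 libraries examined (members, named genes and ratios in each medium), 14 held 1 library far from the rest, where chance gives about 1 in 20, or 2.9. The measure was the gap of the extreme library to its nearest neighbour over the whole range of the group, tested by Dixon's 95% critical value. In horse serum, library 6 was the low extreme for all 10 members, with a gap of 0.683 for Tnnt1, 0.686 for Tnnt2, 0.818 for Tnnt3, 0.862 for Tnni1, 0.883 for Tnni2, 0.874 for Tnnc1, 0.812 for Tnnc2, 0.791 for Tpm1, 0.800 for Tpm2 and 0.706 for Tpm3. It was also the low extreme for Cfl2 (0.804), and the high extreme for Ptbp1 (0.874) and for the Tnnc1 to Tnnc2 ratio (0.803). These groups share 1 library and are not separate observations. In the STEM group the lowest library for Myf5 was 11.4 CPM, with a gap of 0.719.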

How the results depend on the processing

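Over 11 libraries, 9 members were called lower under every alternative run and with each further library left out. Between 3007 (total counts only) and 3788 (upper quartile factors) of all genes were called lower in these runs. Over 12 libraries the 2 calls became 0 with no filter on low counts (2 members lower at an unadjusted p under 0.05; DESeq2 called 2), 1 with limma-voom and 7 with quality weights, which gave library 6 a weight of 0.111. Of all genes 2340 were called lower with no filter, 2294 with limma-voom and 3523 with quality weights, against 2471 in the main fit. Leaving out 1 library gave 1 to 9 member calls, the 9 without library 6, and moved the genes called between 4459 and 7245, those higher between 2289 and 3746 and those lower between 2133 and 3499. Signs turned over 12 libraries for members not called there: Tnnt3 was 0.01 with total counts only and 0.04 with limma-voom, Tnnc2 0.07 with limma-voom and Tpm2 -0.02 with quality weights, and with 1 library left out they ran from -0.17 to 0.02, -0.26 to 0.01 and -0.05 to 0.13. With 1 library left out, the slow-to-fast differences ran from -0.353 to -0.121 for Tnnc1 to Tnnc2 over 12 libraries (past 0.05 without 1, 2, 3, 5, 6, 7, 8 or 12), and over 11 from -0.133 to -0.101 for Tnni1 to Tnni2, from -0.159 to -0.083 for Tnnc1 to Tnnc2 (called only without library 4, adjusted p = 0.0381) and from -0.213 to -0.161 for Tpm3 to Tpm1. The cause was not tested. Scaling moved the median log2 fold change of all genes to between -0.012 and 0.051. No paired analysis was possible because the groups share no library numbers. Depth did not limit the members, whose lowest count was 3131, but limited Tnni3 and Nebl.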
